A study of Mus musculus with 2 samples.

Results

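The Groucho/TLE corepressors of the mouse, Tle1, Tle2, Tle3, Tle4 and Tle5, were followed in tissue from under and above the dorsal aorta of the embryo. They are 5 of the 24675 genes with a symbol on the array, each found through its Entrez gene number, and all were chosen by name with earlier results of these data known. RNA was hybridised to Affymetrix Mouse Gene 2.0 ST arrays from laser-cut pieces of embryos at embryonic day 10.5. The ventral piece was cut underneath the aorta, and the dorsal piece lay between the vessel's roof and the notochord. Both came from the same C57Bl/6 embryos, for which the labels give no treatment or mutant allele, and each piece can hold several cell types. There was 1 array per tissue, given as biological replicate 4 in both cases, so no value below has an error or a test, and every comparison is between these 2 arrays alone. The number of embryos behind each array is not stated in the labels.

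Groucho/TLE proteins do not bind DNA themselves. They are brought to genes by transcription factors, among them Hes proteins downstream of Notch, Runx proteins, the TCF/LEF factors of Wnt signalling and homeodomain and forkhead factors with a short eh1 motif, and they silence those genes with the help of histone deacetylases. Tle1 to Tle4 encode full-length corepressors, with an amino-terminal Q domain through which they form tetramers and bind TCF/LEF factors and a carboxy-terminal WD40 domain that grips Hes, Runx and eh1 motifs. Tle5, also known as Aes or Grg5, encodes a short member that keeps the Q domain and lacks the WD40 domain, and it can act as an antagonist of the full-length proteins. Runx1, a partner of these proteins, is required for the blood stem cells that arise at the ventral wall of the aorta.

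Levels are RMA values on the log2 scale and differences are ventral minus dorsal, so that a positive difference means more signal in ventral tissue. To judge which levels stood above background, 1365 olfactory and vomeronasal receptor genes, which these tissues would not be thought to use, served as a yardstick. Their 95th percentile over both arrays, 3.92, is called the background mark, and their 99th percentile was 5.48. Of all 24675 genes with a symbol, 5884 lay above the mark in ventral tissue and 5975 in dorsal tissue. Where the lower level of a gene lay under the mark, the fold given is a lower bound, the higher level over the mark. Genes were kept for counting when the higher of their levels reached 3.10, the median over genes of the mean of both arrays, which left 13982 genes with a median difference of -0.12. A gene at least 2-fold higher in 1 tissue on the measured levels is said to be past 2-fold on that side, also where its lower level lay under the mark and the bound is smaller. Levels are compared between tissues and not between genes, since probes differ in brightness. How far the probes separate these related genes is not stated in the labels.

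The short member Tle5 and the full-length member Tle1 were higher in dorsal tissue, Tle3 and Tle4 were somewhat higher in ventral tissue, and Tle2 lay near background in both. Of the 5 members, 0 were past 2-fold on the ventral side and 2 on the dorsal side, beside 9.44% and 4.88% of all kept genes. The other 3 members were within 2-fold. The median difference of the members was -0.28, against -0.12 over all kept genes. The family was chosen with the difference of Tle5 known, so these counts are a description only. All 5 members were kept, and all 5 had both of their levels above 3.10. Fewer cells of a type and less RNA per cell cannot be told apart in such pieces.

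**Figure D1:**
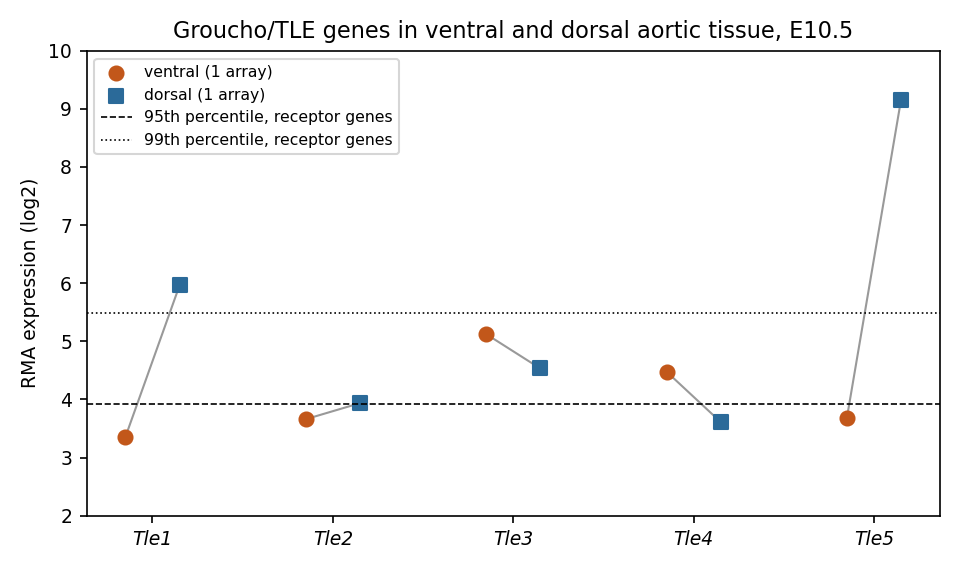
Levels of Tle1 to Tle5 on the log2 scale, with 1 point per array, ventral as circles and dorsal as squares, and lines at the 95th (dashed) and 99th (dotted) percentiles of the receptor genes. Tle5 stands at 9.15 and Tle1 at 5.96 in dorsal tissue with ventral levels under the dashed line, while Tle3 and Tle4 slope the other way.

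Tle5 was measured at 3.68 in ventral tissue and 9.15 in dorsal tissue. The ventral level lay 0.24 under the background mark and the dorsal level 5.23 above it. The gene thus stood above background in dorsal tissue only, with a difference of -5.47 on the log2 scale, and was at least 37.5-fold higher there. Against the 99th percentile of the receptor genes in place of the mark, the bound was at least 12.7-fold. Among the 13982 kept genes it ranked 7th from the dorsal end. The difference was between -5.64 and -5.35 after quantile normalization, centring on the median and a loess on level.

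Tle1 was measured at 3.36 in ventral tissue and 5.96 in dorsal tissue, a difference of -2.61. Its ventral level was 0.56 under the background mark, which made the gene at least 4.12-fold higher in dorsal tissue. That bound was at least 1.40-fold against the 99th percentile of the receptor genes, because the dorsal level was close to it. Tle1 ranked 69th among kept genes from the dorsal end. Of the 2628 genes above the 99th percentile on at least 1 array, as Tle1 and Tle5 were, 30.1% were past 2-fold on the ventral side and 12.7% on the dorsal side.

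Tle3, which in mouse also takes part in fat cell differentiation, was the only member above the background mark on both arrays. It was measured at 5.12 in ventral tissue and 4.53 in dorsal tissue, a difference of 0.59 and a fold of 1.51. Tle4, whose human counterpart is lost with TLE1 in some acute myeloid leukemias, was measured at 4.48 in ventral tissue and 3.61 in dorsal tissue. Its difference was 0.87, and since the dorsal level was under the mark the fold is at least 1.47. Both genes lay within 2-fold, and 83.8% of kept genes had a lower difference than Tle3 and 88.8% a lower one than Tle4. Neither reached the 99th percentile of the receptor genes on either array, so these levels are less certain than those of Tle1 and Tle5 in dorsal tissue.

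Tle2, the remaining full-length gene, was measured at 3.66 in ventral tissue and 3.94 in dorsal tissue. The dorsal level was 0.02 above the background mark and under the 95th percentile of the receptor genes on the dorsal array alone, 4.06. A difference in Tle2 was not detectable at this signal. Tle6, a shorter relative known in mouse for its role in the oocyte and early embryo, was at 2.60 in ventral tissue and 2.61 in dorsal tissue, both under the mark. Tle7 was not analysed here.

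**Figure D2:**
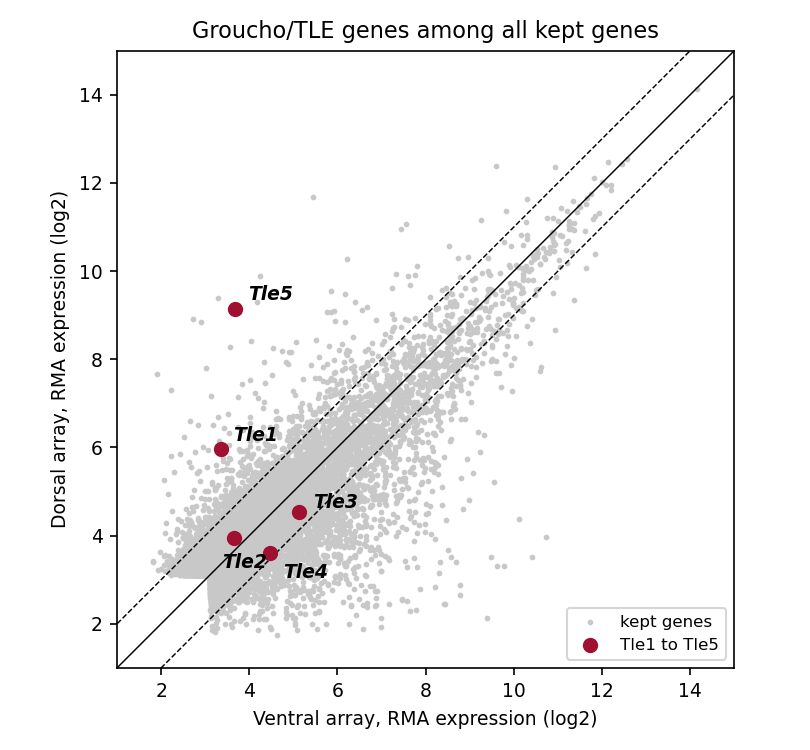
Each kept gene by its ventral level (x axis) and dorsal level (y axis), both on the log2 scale, with Tle1 to Tle5 in red, a solid line of equality and dashed lines at 2-fold. Tle5 lies among the few genes at the upper left, with a difference of -5.47, and Tle2, Tle3 and Tle4 lie between the dashed lines.

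The genes with the most similar pair of levels were found for each member as the 3 protein-coding genes at the smallest distance on the log2 scale over the 2 arrays. For Tle5 these were Pcp4, a calmodulin-binding peptide gene, at a distance of 0.45, Efna2, an ephrin ligand gene, at 0.52, and Rpain, at 0.83. Only 1 gene lay within 0.5 log2 units of Tle5. For Tle1 they were Kxd1, Armc10 and Mcu, the mitochondrial calcium uniporter gene, at distances of 0.08, 0.09 and 0.12, and 10 genes lay within that radius. Around Tle3, where Cmtm3, Rpp30 and Evl were nearest, there were 451 such genes. Tle4 had 552, led by Pip5k1a, Arf5 and Mrps31, and Tle2 had 2342, led by Krt42, Tacc1 and Kcnc4. With only 2 arrays, likeness in this sense is shared by many unrelated genes and serves as a description of position.

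Promoter sequences from RefSeq, build GRCm38.p6, were matched to Tle1, Tle2, Tle3 and Tle4, running from 250 bases before to 50 after each gene start. Those of Tle1, higher in dorsal tissue, and of Tle3 and Tle4, higher in ventral tissue within 2-fold, are shown so that members with opposite differences can be compared. Capitals mark CACGTG, an E-box that bHLH proteins of the Hey and Myc families can bind, which reads the same on both strands. It was searched for after the sequences had been seen. The Tle1 promoter is chr4:72200844-72201143 on the minus strand, that of Tle3 chr9:61372116-61372415 on the plus strand and that of Tle4 chr19:14598134-14598433 on the minus strand.
Tle1: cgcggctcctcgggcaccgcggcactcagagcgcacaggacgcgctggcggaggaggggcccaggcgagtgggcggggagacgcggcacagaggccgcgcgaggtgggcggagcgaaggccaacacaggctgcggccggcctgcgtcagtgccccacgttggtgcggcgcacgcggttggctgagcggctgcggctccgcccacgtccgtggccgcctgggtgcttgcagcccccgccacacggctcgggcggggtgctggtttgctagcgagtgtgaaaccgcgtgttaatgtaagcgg
Tle3: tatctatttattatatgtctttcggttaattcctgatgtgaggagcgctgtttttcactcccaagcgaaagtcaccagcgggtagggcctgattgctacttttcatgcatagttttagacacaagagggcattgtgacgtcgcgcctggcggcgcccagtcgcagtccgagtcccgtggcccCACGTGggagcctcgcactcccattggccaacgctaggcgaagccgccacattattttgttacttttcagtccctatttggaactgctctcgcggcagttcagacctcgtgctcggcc
Tle4: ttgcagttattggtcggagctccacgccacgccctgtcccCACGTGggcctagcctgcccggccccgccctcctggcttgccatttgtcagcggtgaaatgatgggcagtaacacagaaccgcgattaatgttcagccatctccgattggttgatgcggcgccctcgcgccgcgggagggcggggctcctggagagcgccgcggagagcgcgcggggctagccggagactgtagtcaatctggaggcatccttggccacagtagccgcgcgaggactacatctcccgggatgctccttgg
The E-box occurred 1 time in Tle3, 68 bases before the start, and 1 time in this promoter of Tle4, 210 bases before the start. It occurred 0 times in the promoters of Tle1 and Tle2 and 0 times in the other promoter of Tle4 that RefSeq gives. Of 32851 promoters of 300 bases in the table, 7.15% held it. The N-box CACNAG, a site that Hes proteins can bind, was searched for on both strands too. It occurred 0 times in Tle1, 2 times in Tle2, 3 times in Tle3 and 0 times in either promoter of Tle4, and 42.5% of the promoters held it. Any relation of either motif to the differences was not tested. The stretches were rich in G and C, at 73.7% for Tle1, 53.7% for Tle3 and 65.0% for Tle4. A match is a run of letters and not a measured binding site.

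Tle5, Tle2 and Tle6 follow one another on chromosome 10 of the GRCm38.p6 annotation, and the large dorsal excess of Tle5 did not extend along this cluster. Beside -5.47 for Tle5, the difference was -0.28 for Tle2 and -0.01 for Tle6, both near or under background. The annotated spans of Tle2 and Tle6 overlap, so their signals may not be fully separate. On the other side of Tle5, Gna11, which encodes a G protein alpha subunit, was measured at 7.58 in ventral tissue and 3.29 in dorsal tissue. Its difference of 4.29 was opposite to that of Tle5, with the dorsal level under the mark. The lncRNA gene Gm31936, annotated between Tle5 and Tle2, was not analysed here.

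Tle1 lies on chromosome 4, and the next annotated gene beyond its start is the lncRNA gene C630043F03Rik, which shares no annotated span with it. C630043F03Rik was measured at 4.31 in ventral tissue and 6.47 in dorsal tissue. Its difference of -2.16 ran the same way as that of Tle1, and both had dorsal levels above the 99th percentile of the receptor genes. On the other side, Gm11232 was at 2.50 in ventral tissue and 2.36 in dorsal tissue, under the background mark.

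The nearest annotated neighbours of Tle3 on chromosome 9 and of Tle4 on chromosome 19 were not analysed here, and the next protein-coding genes were read in their place after the data had been seen. Beside Tle3, Uaca was at 5.26 in ventral tissue and 4.44 in dorsal tissue. Rplp1, a ribosomal protein gene on the other side, was at 10.94 in ventral tissue and 12.35 in dorsal tissue. Beside Tle4, Psat1, an enzyme gene of serine synthesis, was at 3.64 in ventral tissue against 3.50 in dorsal tissue, and the receptor gene Olfr1505 was at 5.70 in ventral tissue and 6.34 in dorsal tissue. Uaca thus differed in the same direction as Tle3, within 2-fold, and Rplp1 in the opposite one.

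**Figure D3:**
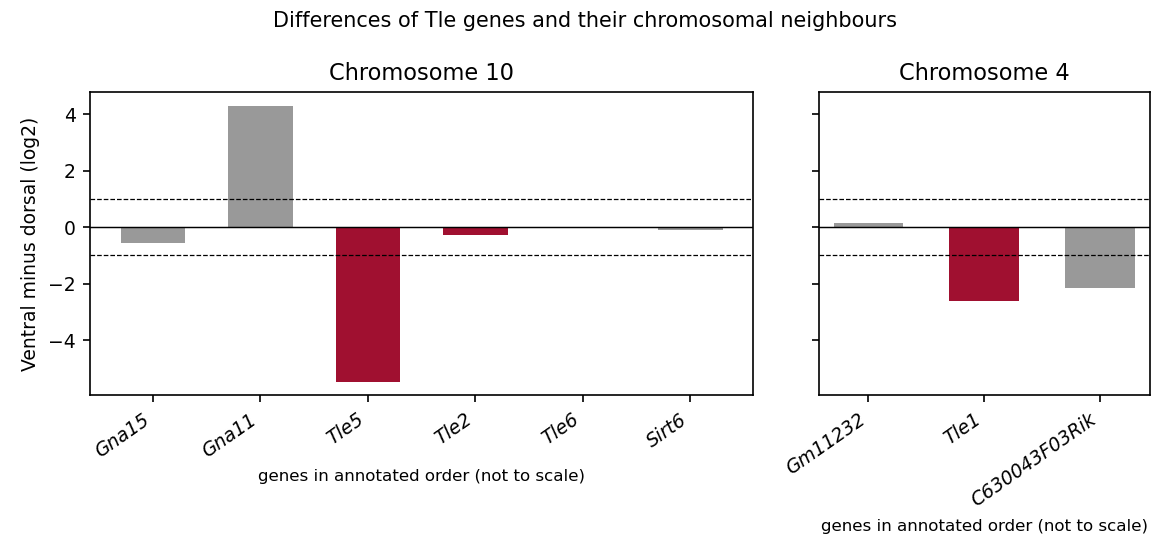
Ventral minus dorsal differences (log2) of the genes around Tle5, Tle2 and Tle6 on chromosome 10 and around Tle1 on chromosome 4, in annotated order and not to scale, with dashed lines at 2-fold. Gna11 at 4.29 and Tle5 at -5.47 are neighbours with opposite differences, while Tle1 at -2.61 and C630043F03Rik at -2.16 differ the same way.

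The factors that TLE proteins work with were read from lists of DNA-binding partners, other corepressors, modifying enzymes and Wnt targets. From 95 listed genes, the array measured 86 and the floor left 68. Past 2-fold on the ventral side were 9 of the 68, or 13.2%, and on the dorsal side 4, or 5.88%, beside 9.44% and 4.88% of all kept genes. Counted on the bounds in place of the measured levels, 8 were past 2-fold on the ventral side and 3 on the dorsal side. Their median difference was -0.21, but 0.13 among those above the background mark on at least 1 array, so it has no settled direction. The lists as a whole thus had shares close to the background, and what follows concerns single genes.

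Among Hes and Hey repressors, which act downstream of Notch, 6 of 10 measured genes were kept, and Hes1 and Hey1 differed in opposite directions. Hes1, a classical partner of TLE proteins through its WRPW motif, was measured at 5.62 in ventral tissue and 4.18 in dorsal tissue, a fold of 2.71. Hey1, whose related motif differs from that of Hes1, was measured at 5.77 in ventral tissue and 7.49 in dorsal tissue, a fold of 3.30 toward dorsal. Hey1 and Tle5 were thus both higher dorsally, whereas Hes1 was higher ventrally like Tle3 and Tle4. Hey1 is listed here beside the Hes genes, and whether it works with TLE proteins was not tested. Hes7 was at 4.52 in ventral tissue against 4.22 in dorsal tissue.

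Of the Runx factors, which carry a VWRPY motif for TLE proteins, Runx1 was under the background mark on both arrays, at 3.23 in ventral tissue and 3.68 in dorsal tissue. Cbfb, the non-DNA-binding partner of Runx proteins, was measured at 5.72 in ventral tissue against 3.39 in dorsal tissue, at least 3.48-fold higher ventrally, or at least 1.18-fold against the 99th percentile of the receptor genes. Among TCF/LEF factors, Tcf7l1, largely a repressor of Wnt target genes, was at 5.89 in ventral tissue and 4.41 in dorsal tissue, a fold of 2.78. It was the only 1 of 7 kept genes of that list at least 2-fold apart. Of all kept genes, 9.44% were past 2-fold on the ventral side and 4.88% on the dorsal side. Tcf7l2 was at 4.29 in ventral tissue against 4.24 in dorsal tissue, and Lef1 was under the mark on both arrays. Ctnnb1, which encodes beta-catenin, was at 7.35 in ventral tissue against 7.60 in dorsal tissue, and Bcl9, a coactivator of beta-catenin, at 6.23 in ventral tissue and 5.58 in dorsal tissue.

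Among homeodomain, forkhead, T-box and paired factors with eh1 or related motifs, 22 of 27 measured genes were under the background mark on both arrays. Most of all 24675 genes were under it too, with 5884 above it in ventral tissue and 5975 in dorsal tissue. Of 20 kept genes 0 were past 2-fold ventrally and 1 dorsally, beside 9.44% and 4.88% of all kept genes. On the dorsal side this was 5% of the list, close to the background. That gene was Uncx, which encodes a sclerotome homeobox factor, under the mark in ventral tissue and at 4.35 in dorsal tissue. That call rests on a ventral level under the mark, and the bound is at least 1.34-fold toward dorsal. Tbx18 was at 4.62 in ventral tissue against 3.74 in dorsal tissue, and Gsc at 4.37 in ventral tissue and 4.98 in dorsal tissue. Six3 was at 5.06 in ventral tissue and 5.70 in dorsal tissue. The adaptors Ripply2 and Ripply3, which link T-box factors to TLE proteins, were above the mark in dorsal tissue alone. Ripply2 was at 3.81 in ventral tissue against 4.32 in dorsal tissue, and Ripply3 at 3.61 in ventral tissue and 4.47 in dorsal tissue, both within 2-fold.

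Class I histone deacetylases, with which TLE proteins silence chromatin, included 2 of 3 kept genes past 2-fold on the ventral side and 0 on the dorsal side, beside 9.44% and 4.88% of all kept genes. After quantile normalization or the loess the ventral count was 1. Both called genes, Hdac1 and Hdac2, reached levels above the 99th percentile of the receptor genes. Of all genes above it on at least 1 array, 30.1% were past 2-fold on the ventral side and 12.7% on the dorsal side. Hdac1 was measured at 8.78 in ventral tissue against 2.87 in dorsal tissue, at least 29.0-fold higher ventrally, or at least 9.83-fold against the 99th percentile of the receptor genes. Its difference of 5.91 was opposite in sign to those of Tle5 and Tle1. A pseudogene named after Hdac1 is annotated, so its probes may read more than 1 locus. Hdac2, its close relative, was at 10.16 in ventral tissue and 9.11 in dorsal tissue, a difference of 1.05 that was below 2-fold after quantile normalization, at 0.84, and after the loess, at 0.77. Hdac3 was under the mark on both arrays, at 3.54 in ventral tissue and 3.57 in dorsal tissue.

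Other corepressor genes had 3 of 12 kept members past 2-fold on the ventral side and 1 on the dorsal side, or 2 and 1 on the bounds. Of all kept genes, 9.44% and 4.88% were past 2-fold on these sides, so the counts are a description only. Rcor1, a CoREST subunit gene, was at 5.31 in ventral tissue and 4.04 in dorsal tissue, a fold of 2.41. Sin3a, a scaffold of histone deacetylase complexes, was at 5.51 in ventral tissue and 4.43 in dorsal tissue, a fold of 2.12, but lay within 2-fold after quantile normalization, at 0.89 on the log2 scale. Ctbp2 was at 4.24 in ventral tissue against 2.96 in dorsal tissue, at least 1.25-fold higher and past 2-fold on the measured levels alone. Ctbp1 went the other way, at 4.86 in ventral tissue against 5.88 in dorsal tissue, and its difference of -1.02 was -0.90 after centring. Tbl1xr1, a subunit of another corepressor complex, was at 4.30 in ventral tissue and 3.34 in dorsal tissue, a difference of 0.95 that was 1.07 after centring and after the loess.

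Enzymes that act on TLE proteins were all above the background mark in both tissues, 7 of 7 measured. Of all 24675 genes, 5884 were above it in ventral tissue and 5975 in dorsal tissue. Past 2-fold were 1 of the 7 on the ventral side and 1 on the dorsal side, beside 9.44% and 4.88% of all kept genes. These counts are a description only. The catalytic subunits of casein kinase 2, which phosphorylates TLE proteins, differed in opposite directions. Csnk2a1 was at 8.74 in ventral tissue and 10.31 in dorsal tissue, a fold of 2.96 toward dorsal, although pseudogenes named after it are annotated. Csnk2a2 was at 6.46 in ventral tissue and 4.61 in dorsal tissue, a fold of 3.60. Hipk2, another kinase of these corepressors, was at 6.02 in ventral tissue against 6.49 in dorsal tissue, and Dyrk1a at 6.02 in ventral tissue and 5.68 in dorsal tissue. Vcp, an unfolding ATPase, was at 4.91 in ventral tissue and 4.66 in dorsal tissue.

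Target genes of Wnt signalling, which TLE proteins keep silent where beta-catenin is absent, showed 0 of 10 kept genes at least 2-fold apart in either direction. Over all kept genes the shares were 9.44% on the ventral side and 4.88% on the dorsal side, so few calls would be looked for among 10 genes. Axin2, a feedback inhibitor, was at 3.36 in ventral tissue and 4.06 in dorsal tissue. Ccnd1, the cyclin D1 gene, was at 4.61 in ventral tissue against 4.42 in dorsal tissue, and Myc at 4.94 in ventral tissue and 4.81 in dorsal tissue. The median of the list was -0.18, near that of all kept genes. Of 12 measured members, 9 were under the mark on both arrays, as were most genes of the array.

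**Figure D4:**
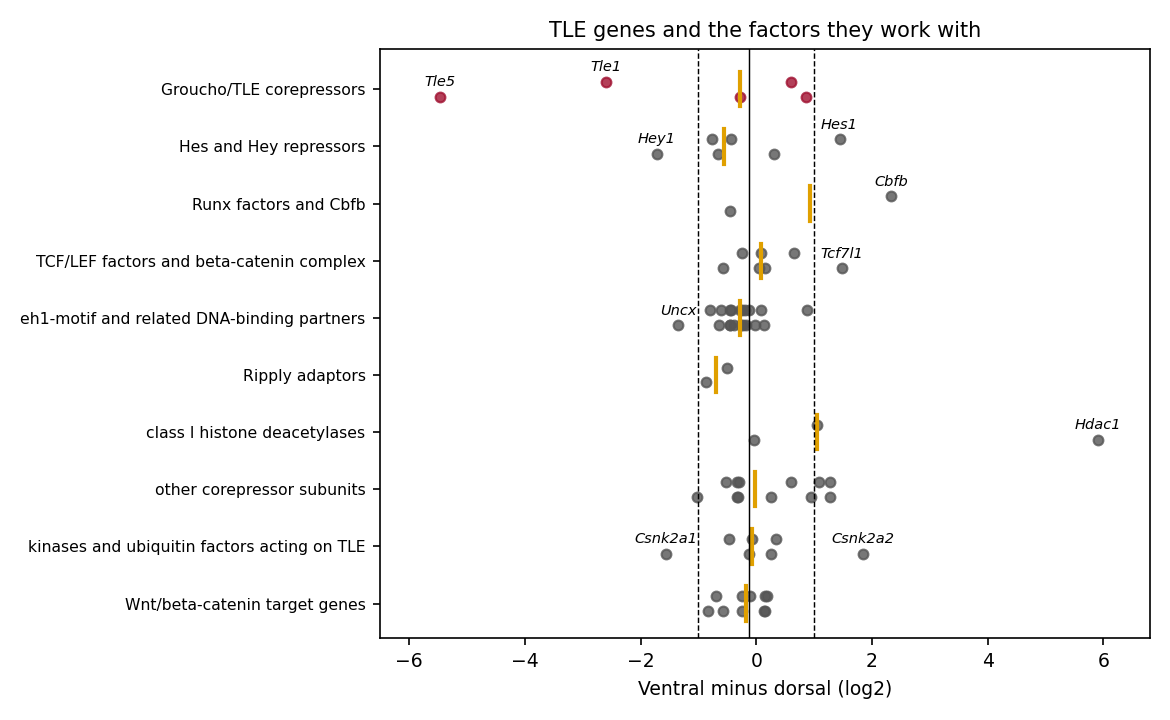
Ventral minus dorsal differences (log2) of the kept genes of each list, 1 point per gene, with the list median in yellow, a solid line at the median of all kept genes and dashed lines at 2-fold. The Groucho/TLE genes run from -5.47 to 0.87, Hdac1 stands alone at 5.91 and the Wnt targets lie between the dashed lines.

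Markers of the cell types that each piece could hold differed between the arrays too, and their counts past 2-fold stand beside 9.44% of all kept genes on the ventral side and 4.88% on the dorsal side. Lists with more calls on the dorsal side, the side of Tle5 and Tle1, were sclerotome, notochord, myotome, neural crest, erythroid and liver. For myotome, neural crest, erythroid and liver the calls rested on 1 gene each, of 5, 3, 5 and 4 kept genes. Of 9 sclerotome genes 0 were past 2-fold on the ventral side and 3 on the dorsal side, or 2 on the bounds. They were led by Pax9 at 4.02 in ventral tissue against 6.15 in dorsal tissue. The summed linear level of the list was 166 in ventral tissue and 317 in dorsal tissue. Of 5 notochord genes 2 were past 2-fold dorsally, or 1 on the bounds, with sums of 51.0 in ventral tissue and 84.3 in dorsal tissue. Without Shh these sums were 36.0 in ventral tissue and 49.6 in dorsal tissue. The notochord ligand gene Shh was at 3.91 in ventral tissue against 5.12 in dorsal tissue, at least 2.30-fold higher dorsally. Of 5 kept myotome genes 1 was past 2-fold dorsally, Pax7, on the measured levels alone, with sums of 82.7 in ventral tissue and 109 in dorsal tissue. Des of that list went the other way within 2-fold, at 4.54 in ventral tissue against 3.55 in dorsal tissue. Neural crest and glial genes had sums of 109 in ventral tissue and 321 in dorsal tissue, which without Fabp7 were 35.2 in ventral tissue and 37.0 in dorsal tissue. Liver genes had sums of 44.2 in ventral tissue and 144 in dorsal tissue, which without Ttr, a plasma transport protein gene, were 24.2 in ventral tissue and 26.0 in dorsal tissue.

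On the ventral side, 4 of 9 coelomic epithelium and gonadal ridge genes were past 2-fold, or 2 on the bounds, with sums of 306 in ventral tissue and 97.2 in dorsal tissue. Smooth muscle had 4 of 7 kept genes there, or 3 on the bounds, with sums of 320 in ventral tissue and 111 in dorsal tissue. Without Cnn1 these sums were 208 in ventral tissue and 103 in dorsal tissue. Endothelium had 3 of 9 kept genes past 2-fold ventrally, or 2 on the bounds, with sums of 269 in ventral tissue and 133 in dorsal tissue. Without Cdh5 these sums were 169 in ventral tissue and 114 in dorsal tissue. Neural genes had no single direction, with 2 of 5 kept genes past 2-fold ventrally and 1 dorsally, or 1 and 1 on the bounds. Their sums were 389 in ventral tissue and 165 in dorsal tissue, but 98.1 in ventral tissue and 121 in dorsal tissue without Nefm. Tubb3, neuronal tubulin, was at 4.64 in ventral tissue and 5.78 in dorsal tissue. Sums for the erythroid list were 10653 in ventral tissue against 11428 in dorsal tissue. Its only gene past 2-fold was Klf1, at 4.25 in ventral tissue and 5.35 in dorsal tissue. Alas2 of that list went the other way, at 4.10 in ventral tissue and 3.40 in dorsal tissue. Of 8 macrophage genes, 6 were under the mark on both arrays, as were most genes of the array. The part of these markers in the differences of the Tle genes was not tested. The sums without the brightest gene and the counts on the bounds were added after the data had been seen.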

How the data were processed

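The tissue pieces were cut by laser from cryosections, and per the labels' protocols 200 to 1000 pg of total RNA was amplified before hybridisation, a step that can lose transcripts at random. The authors deposited log2 expression values, 1 per Entrez gene number and array, made with RMA in Affymetrix Expression Console per the submitters' processing notes. The versions, the genome build and the set of arrays normalized with these are not stated there. Levels ran from 1.47 to 14.2 in the ventral array and from 1.45 to 14.1 in the dorsal array, with medians of 3.03 and 3.15. With 1 array per tissue, precision is limited by that number.

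Of 25429 features, 24675 had 1 symbol in the platform annotation and 754 had none and were left out. All 24675 were found by gene number in the GRCm38.p6 table. Arrays were assigned by title. The members and lists were chosen with earlier results of these data known. Named genes were all members, list genes of greatest difference above the background mark (up to 5 a list, up to 2 for cell types), some partners fixed by name, nearest patterns and chromosomal neighbours. Differences were counted at 2-fold with no test. Alternatives were quantile normalization, centring, a loess (span 0.3), other floors and other folds, and the steps were tested on simulated data. Python 3.11.15, numpy 2.4.6, pandas 2.3.3, statsmodels 0.14.6 and matplotlib 3.10.9 were used.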

Additional observations from a re-analysis of the deposited data

How the results depend on the processing

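The differences of Tle1 to Tle5 kept their direction and their side of 2-fold under quantile normalization, centring on the median of kept genes and the loess. Over these settings and the deposited values Tle1 ranged from -2.71 to -2.49, Tle2 from -0.28 to -0.16, Tle3 from 0.40 to 0.71 and Tle4 from 0.87 to 0.98. The counts of kept genes past 2-fold on the ventral and the dorsal side were 792 and 335 among genes above the 99th percentile of the receptor genes, 2286 and 2099 at a fold of 1.5, and 626 and 228 at a fold of 3. For the partner, effector, regulator and target genes a fold of 3 gave 3 higher in ventral and 1 higher in dorsal tissue, and a fold of 1.5 gave 13 higher in ventral and 12 higher in dorsal tissue. Their median difference was negative as deposited and under the 3 scalings, and 0.13 and 0.34 among genes above the 95th and the 99th percentile of the receptor genes. The median of the Hes and Hey genes was -0.55 as deposited and 0.30 among genes above the 95th percentile. These follow from the threshold or the filter itself. No paired analysis was possible because each tissue has 1 array, and no array could be left out. Signal over background limits Tle2, Tle3 and Tle4, none of which reached the 99th percentile of the receptor genes, and the ventral levels of Tle1 and Tle5, which are known only to lie under the mark. Errors of dissection, amplification and hybridisation cannot be told apart from a difference of tissue with 1 array each.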

Other observations

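Pairs of paralogs, chosen after their values were seen, differed in opposite directions at 3 places around the TLE genes. The casein kinase 2 subunits Csnk2a2 and Csnk2a1 had differences of 1.85 and -1.56, and the corepressors Ctbp2 and Ctbp1 had 1.28 and -1.02. Within the Groucho/TLE family itself Tle4 had 0.87, within 2-fold, and Tle1 -2.61. Ctbp2 was at least 1.25-fold higher on its bound, and Ctbp1 was at -0.90 after centring. Other paralogs differed in the same direction, such as Hdac1 and Hdac2, at 5.91 and 1.05. These are values of 1 array per tissue, and no test was made of them.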
